A study of Mus musculus with 4 samples.

Results

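The 10 genes described here encode proteins that bundle, cap, anchor or shape the actin cores of stereocilia in the hair cells (HCs) of the inner ear. They are *Espn*, *Fscn2*, *Pls1*, *Pls3*, *Eps8*, *Eps8l2*, *Triobp*, *Xirp2*, *Grxcr1* and *Rdx*, and they were taken by symbol from a table of 12814 genes, in which all 10 were found. The list was named for bundling and capping, but it also holds a regulator of stereocilium shape (*Grxcr1*) and a membrane linker (*Rdx*). The RNA came from newborn (P1) *Atoh1/nGFP* mice on the C57BL/6 background, a line in which the *Atoh1* transgene marks HCs with a nuclear green fluorescent protein, and all 4 groups shared this genotype, strain and age. Cells from the cochlea and from the vestibular system were sorted into HCs, which carried the fluorescent protein and the epithelial surface protein CD326, and epithelial non-sensory cells (ENSCs), which carried CD326 without the fluorescent protein. Each preparation pooled the inner ears of several mice and no agent was given. The table holds 1 column of signal for each of cochlear HCs, cochlear ENSCs, vestibular HCs and vestibular ENSCs, so no value below has a replicate error and no test between groups was possible.

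A stereocilium is a finger-like protrusion of the HC surface whose core is a bundle of parallel, crosslinked actin filaments. Crosslinkers such as espin, the plastins and fascin 2 hold the filaments of the shaft together, proteins of the EPS8 family act at the filament ends in the tip, TRIOBP wraps the filaments of the rootlet that anchors the stereocilium in the cell, and radixin ties the core to the membrane near its base. In newborn mice these bundles are still growing in length and width, and loss of several of these genes causes deafness or imbalance.

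The signal is a read count per gene that the authors quantile-normalized across the 4 libraries and limited to a floor of 20, so that every library has the same set of values and a median of 120. It has no depth of its own. At the low end each library has a range of signals in which the order of the genes followed their levels in other libraries, as tied values would, so that differences inside it were not read. This tied range reached 24.25 in cochlear HCs, 22.75 in cochlear ENSCs, 30.5 in vestibular HCs and 20 in vestibular ENSCs, and a fold change against a signal inside it is given as "at least", with the top of the range in place of the signal. A gene was counted as higher or lower when its signals in the 2 libraries compared were at least 3-fold apart. Of all genes, 8.39% were higher and 9.2% lower in HCs of the cochlea, and 13.8% and 14.3% in HCs of the vestibular system. Between the ENSC libraries, 7.8% were higher and 7.94% lower in the cochlea. The HC markers followed the labels. All 8 HC markers listed, among them the transcription factor gene *Pou4f3* and the synaptic gene *Otof*, exceeded 3-fold between HCs and ENSCs of both organs, and their summed signal was 7538 in cochlear HCs, 319.25 in cochlear ENSCs, 10557.2 in vestibular HCs and 276.75 in vestibular ENSCs. *Epcam*, which encodes CD326, was above the tied range in all libraries. Of 5 neuron markers, 3 (*Nefl*, *Nefm* and *Snap25*) were also past 3-fold toward HCs in both organs, with summed signals of the 5 of 5745, 216.75, 6763 and 102.5 in cochlear HCs, cochlear ENSCs, vestibular HCs and vestibular ENSCs, and their part in the results below was not tested. Of 8 supporting cell markers, 4 were past 3-fold toward cochlear ENSCs and 3 toward vestibular ENSCs, and in the latter organ the list median of the log2 ratio of HC to ENSC was -0.12.

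The promoters of 4 of the genes are shown: *Grxcr1* and *Espn* were higher in HCs of both organs with ENSC signals inside the tied range, and *Pls1* and *Pls3* are related genes whose signals went opposite ways in the vestibular system. The sequences are from the RefSeq promoter table, cover 250 bases before to 50 bases after the transcription start, and were placed in the NCBIM37 (mm9) assembly by exact match at chr5:68422824-68423123 (plus strand, *Grxcr1*), chr4:151526449-151526748 (minus strand, *Espn*), chr9:95745649-95745948 (minus strand, *Pls1*) and chrX:73120472-73120771 (minus strand, *Pls3*). Capitals mark matches to the motifs searched.
Grxcr1: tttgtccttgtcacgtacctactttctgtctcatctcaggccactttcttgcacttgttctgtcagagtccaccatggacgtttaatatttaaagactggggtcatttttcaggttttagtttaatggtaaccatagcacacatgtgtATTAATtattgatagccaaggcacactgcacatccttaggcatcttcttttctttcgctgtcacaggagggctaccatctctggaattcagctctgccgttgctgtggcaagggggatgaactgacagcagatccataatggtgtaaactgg
Espn: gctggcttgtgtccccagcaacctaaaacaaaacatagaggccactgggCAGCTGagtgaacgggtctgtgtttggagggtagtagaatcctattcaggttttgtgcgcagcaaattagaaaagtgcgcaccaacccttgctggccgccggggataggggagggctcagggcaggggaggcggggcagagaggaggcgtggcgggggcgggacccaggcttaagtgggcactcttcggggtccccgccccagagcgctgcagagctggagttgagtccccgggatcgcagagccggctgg
Pls1: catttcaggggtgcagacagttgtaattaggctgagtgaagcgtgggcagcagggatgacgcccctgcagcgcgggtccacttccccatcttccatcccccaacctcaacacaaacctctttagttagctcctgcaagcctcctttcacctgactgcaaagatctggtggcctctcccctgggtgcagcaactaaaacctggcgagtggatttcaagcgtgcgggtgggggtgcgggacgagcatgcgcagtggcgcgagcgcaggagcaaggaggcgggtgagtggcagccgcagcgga
Pls3: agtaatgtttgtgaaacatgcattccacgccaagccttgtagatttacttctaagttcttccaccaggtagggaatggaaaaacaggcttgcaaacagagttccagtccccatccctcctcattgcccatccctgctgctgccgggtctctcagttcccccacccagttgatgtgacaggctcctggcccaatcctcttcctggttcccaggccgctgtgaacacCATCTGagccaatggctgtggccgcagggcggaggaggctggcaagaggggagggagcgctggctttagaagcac
The motifs were searched on both strands in the promoter nearest the annotated start of 9 of the genes, and no match of one motif overlapped a match of another. These genes have 15 promoter entries, and only the nearest of each gene was counted. The E-box CAGCTG, of the kind that ATOH1 and other basic helix-loop-helix factors bind, was found in *Espn*, 201 bases before the start, and in *Rdx*, 94 bases before it, and 16.3% of all 32851 mouse promoters in the table hold it. The E-box CAGATG was found in *Pls3* alone, as its reverse complement 25 bases before the start, against 17.2% of all promoters. The A/T-rich word ATTAAT, a core of the sites of POU-domain factors, was found in *Grxcr1* alone, 102 bases before the start, against 4.75% of all promoters. The word GTTGCC, part of the X-box that RFX factors bind, was in none of the 9 windows and in 12.5% of all promoters. Entries that were not counted held other matches. A farther one of *Rdx* holds ATTAAT, 178 bases before its start. Another of *Pls3*, with its start 12 bases away, holds CAGCTG at position 38 after it. A farther one of *Espn* holds CAGCTG at 126 and 78 bases before its start. What is found thus depends on the entry taken. These matches describe the letters of the windows and were not tested as binding sites.

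The 10 genes were placed on 9 chromosomes, with *Pls1* and *Rdx* both on chromosome 9, and all are protein-coding. The first question put to them was how far their transcripts separate HCs from the epithelial cells around them. In the cochlea 5 of the 10 genes, *Xirp2*, *Grxcr1*, *Eps8l2*, *Espn* and *Triobp*, were higher in HCs by 3-fold or more, which 8.39% of all genes of the table were. *Pls3* was lower by 3-fold or more, against 9.2% of all genes. The 6 genes apart by this measure compare with 17.6% of all genes, and the other 4 were not counted, *Fscn2* among them with a ratio known only as a lower bound. In the vestibular system 5 genes were again higher, *Xirp2*, *Grxcr1*, *Pls1*, *Espn* and *Triobp*, against 13.8% of all genes, and *Pls3* was lower, against 14.3%, with 28.1% of all genes apart either way. The median log2 ratio of HC to ENSC signal over the 10 genes was 1.57 for the cochlear and 1.65 for the vestibular pair of libraries, beside medians over all genes of 0.00 and -0.00. These medians use the signals as deposited, those inside the tied range included. In a bulk library, more cells of a type and more RNA per cell cannot be told apart.

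**Figure D1:**
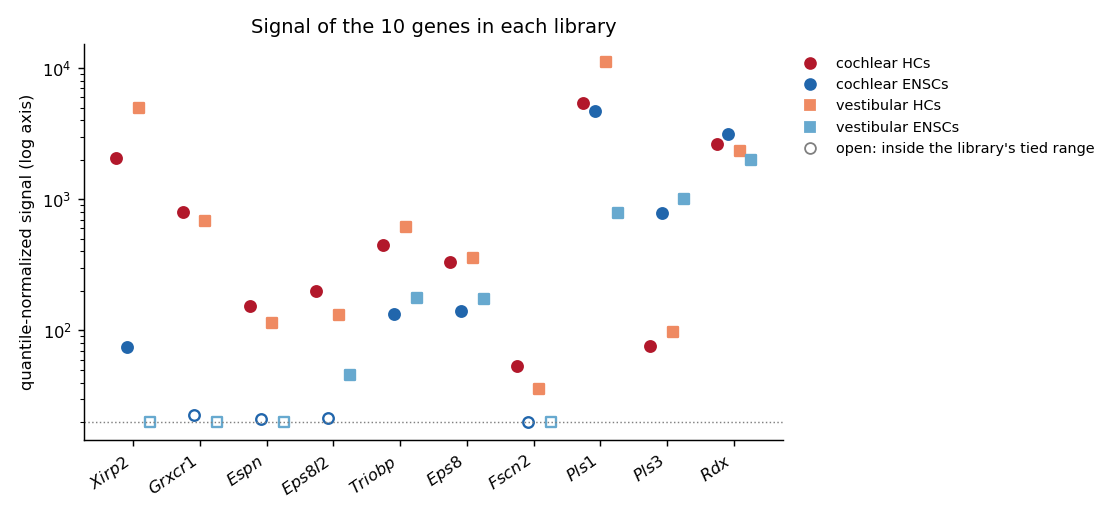
Quantile-normalized signal (log axis) of each of the 10 genes in the 4 libraries, 1 point per library; circles are cochlear, squares vestibular, reds HCs, blues ENSCs, open symbols lie inside the tied range of their library, and the dotted line is the floor of 20. *Xirp2* and *Grxcr1* have the widest gaps between HCs and ENSCs, *Pls3* is the gene with both ENSC points far above both HC points, and the 4 points of *Rdx* lie between 1987.25 and 3121.25.

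Among the crosslinkers of the shaft, the plastins gave opposite pictures. *Pls1* (chr9:95653061-95745730, minus strand) encodes plastin 1, also called fimbrin, an abundant crosslinker of stereocilia. Its signal was 5457 in cochlear HCs, 4737.25 in cochlear ENSCs, 11148 in vestibular HCs and 781.5 in vestibular ENSCs. Vestibular ENSCs stood apart as the low library, and the cochlear HC and ENSC signals were 1.15-fold apart. The ratio of HC to ENSC was therefore 14.3-fold in the vestibular system (log2 3.83), and the log2 ratios of the organs differed by 3.63. Directly between organs, the *Pls1* signal of cochlear ENSCs was 6.06-fold that of vestibular ENSCs, while cochlear HCs were 2.04-fold below vestibular HCs.

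The high *Pls1* signal of cochlear ENSCs was set beside the markers of other cells in that library. The 8 HC markers had signals of at most 86.75 each in cochlear ENSCs, and their summed signal there was 319.25 against 7538 in cochlear HCs, whereas the *Pls1* signal of cochlear ENSCs was 0.868 of that of cochlear HCs. Between the ENSC libraries, 3 of 8 supporting cell markers were past 3-fold toward the cochlea and 1 toward the vestibular system (list median of the log2 ratio 1.46). The mesenchyme markers went both ways, 3 of 6 toward the cochlea and 2 toward the vestibular system (median 0.21). Their summed signal was 16302 in cochlear and 2221.5 in vestibular ENSCs, with *Lum* at 12731.25 and 413.75. Of the 5 epithelial markers 3 were past 3-fold toward the vestibular system and none toward the cochlea (median -1.79). The sums in the same order were 91663.8 and 22968 for supporting cell markers, and 9905 and 21993.8 for epithelial markers. The part of the make-up of the sorted cells in the *Pls1* difference was not tested.

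*Pls3* (chrX:73030993-73120521, minus strand) encodes plastin 3, a crosslinker found in many tissues that is present in stereocilia while they form. It had a signal of 76.5 in cochlear HCs, 781.5 in cochlear ENSCs, 97.25 in vestibular HCs and 1013 in vestibular ENSCs. Both ENSC signals were above both HC signals, so *Pls3* was lower in HCs by 10.2-fold among the cochlear libraries (log2 -3.35) and by 10.4-fold among the vestibular ones (log2 -3.38). Mesenchyme markers were lower in HCs too: 3 of the 6 were past 3-fold in cochlear HCs and 5 of the 6 in vestibular HCs. The epithelial markers were lower in HCs as well, 4 of 5 in the cochlea and all 5 in the other organ, and the part of either list in the *Pls3* result was not tested.

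Per kilobase of exon, the scale on which genes can be compared, the balance of the plastins differed between the libraries. The *Pls1* level was 1403 per kb in cochlear HCs against 18.1 for *Pls3*, a ratio of 77.7. In vestibular HCs the levels were 2866 and 22.9 per kb, a ratio of 125. In cochlear ENSCs *Pls1* led by 6.60-fold, with 1218 against 184 per kb. In vestibular ENSCs the order turned, with 239 per kb for *Pls3* and 200.9 for *Pls1*, which are 1.19-fold apart.

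The coding sequences of the plastins were compared to see whether reads could have been assigned to the wrong gene. Over 1882 aligned positions they were 71.8% identical, and their longest shared run was 20 nt. The windows of 50 nt, the read length that was aligned, in which the plastins are most alike are shown with the mismatched bases in capitals, from positions 361 to 410 of the *Pls1* coding sequence and 364 to 413 of that of *Pls3*.
Pls1: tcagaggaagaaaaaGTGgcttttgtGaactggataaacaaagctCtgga
Pls3: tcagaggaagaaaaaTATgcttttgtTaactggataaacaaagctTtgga
This closest pair of windows differed at 5 positions. When stretches of 50 nt taken every 10 nt along the transcripts were searched in the genome, none of the 366 of *Pls1* and none of the 299 of *Pls3* matched another place with 2 or fewer mismatches.

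*Espn* (chr4:151494440-151526480, minus strand) encodes espin, a crosslinker of the shaft whose loss shortens and thins stereocilia. It had a signal of 153.75 in cochlear HCs, 21 in cochlear ENSCs, 113 in vestibular HCs and 20 in vestibular ENSCs. Both HC signals were above both ENSC signals, which lay inside the tied range, and the HC signal of *Espn* was therefore at least 6.76-fold that of cochlear ENSCs and at least 5.65-fold that of vestibular ENSCs. The signals of HCs were close to the median of all genes, and this call was lost in both organs with a floor of 100 and with a pseudocount of 100. *Fscn2* (chr11:120222848-120229482, plus strand) encodes fascin 2, a crosslinker that accumulates in mature stereocilia. Its signals were lower still, 53.25 in cochlear HCs, 35.75 in vestibular HCs and 20 in both ENSC libraries. The ratio of HCs to ENSCs was thus at least 2.34-fold for the cochlear and at least 1.79-fold for the vestibular libraries, bounds that do not place it on either side of 3-fold, and the vestibular HC signal was just above its tied range.

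The relatives of these crosslinkers were set beside them. *Espnl*, which encodes an espin-like protein of developing stereocilia, had signals of 1200.5 in cochlear HCs, 26.75 in cochlear ENSCs, 1376 in vestibular HCs and 20 in vestibular ENSCs. Its HC signals were 44.9-fold (cochlear) and at least 68.8-fold (vestibular) those of ENSCs. Per kilobase of exon, the *Espnl* level was 8.58-fold that of *Espn* in cochlear HCs (221 against 25.7 per kb) and 13.4-fold in vestibular HCs (253 against 18.9 per kb). *Fscn1*, the widely expressed fascin, had signals of 25, 32.25, 97 and 348.75 in cochlear HCs, cochlear ENSCs, vestibular HCs and vestibular ENSCs. It was 3.60-fold lower in HCs than in ENSCs of the vestibular system and 1.29-fold lower in the cochlea, while *Fscn2* was the higher of the fascin genes per kilobase in cochlear HCs (25.2 against 8.30 per kb) and the lower in vestibular HCs (16.9 against 32.2 per kb).

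**Figure D2:**
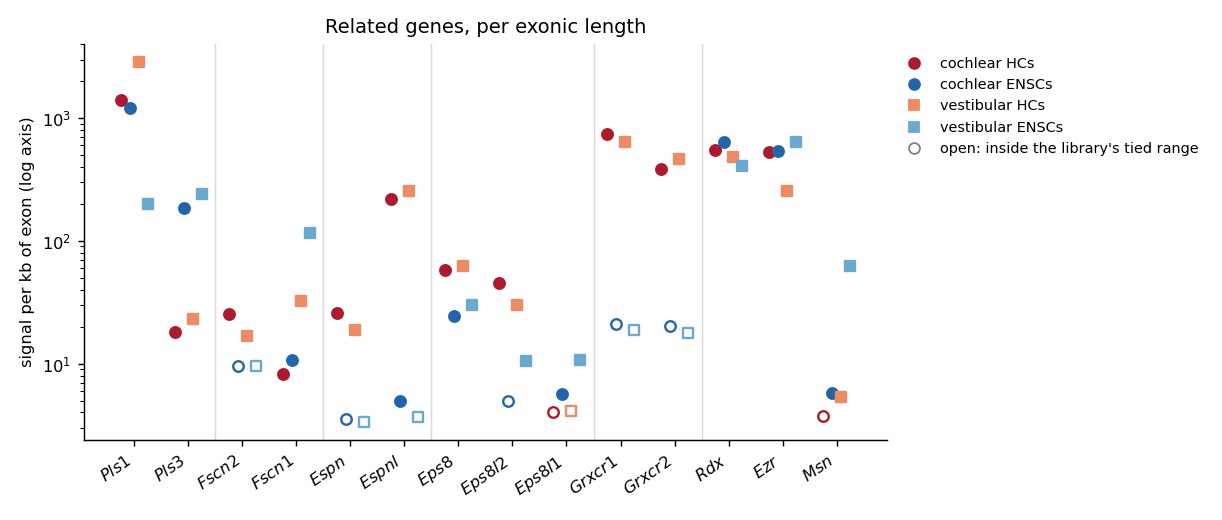
Signal per kilobase of exon (log axis) for members of the list and their relatives present in the table, grouped by family, 1 point per library with the symbols of the plot of signals by library. *Pls1* lies above *Pls3* in 3 of the 4 libraries and the order turns in vestibular ENSCs; *Espnl* lies above *Espn* in both HC libraries; *Grxcr1* and *Grxcr2* are inside the tied range in both ENSC libraries.

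Of the tip proteins, *Eps8* (chr6:137425766-137603397, minus strand) encodes one that caps and bundles filaments at the tips of the tallest stereocilia and that is needed for their elongation. Its signal was 333.25 in cochlear HCs, 140.25 in cochlear ENSCs, 355.5 in vestibular HCs and 172.5 in vestibular ENSCs. HCs were above ENSCs in both organs, by 2.38-fold among cochlear and by 2.06-fold among vestibular libraries, and neither reached 3-fold. *Eps8* was also close to equal between organs, with 1.07-fold between the HC libraries and 1.23-fold between the ENSC libraries, vestibular above cochlear in both.

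*Eps8l2* (chr7:148524779-148548919, plus strand) encodes a relative of EPS8 that is also found at stereocilia tips. The signals were 198.25 in cochlear HCs, 21.5 in cochlear ENSCs, 131 in vestibular HCs and 46 in vestibular ENSCs. In the cochlea, where the ENSC signal was inside the tied range, *Eps8l2* was at least 8.71-fold higher in HCs, a call that was lost with a floor of 100 (log2 0.99) and with a pseudocount of 100. In the vestibular system it was 2.85-fold higher, just short of the threshold, and it passed the threshold (log2 2.56) when ratios were corrected for gene length and GC content. Exons of *Eps8l2* overlap an antisense non-coding gene, B230206H07Rik, over 1482 nt, 33.9% of the exonic length of *Eps8l2*, and since the strand setting of the counting is not given, reads of the overlap cannot be told apart. Per kilobase, *Eps8* was above *Eps8l2* in all 4 libraries, by 1.28-fold in cochlear HCs and by 2.07-fold in vestibular HCs. *Eps8l1*, another gene of this family, had signals of 20 and 20.25 in cochlear and vestibular HCs, inside the tied range, and of 28 and 53.25 in the ENSCs of these organs.

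*Triobp* (chr15:78778154-78836299, plus strand) encodes the protein that bundles the filaments of the rootlet, together with a ubiquitous form that a signal per gene does not separate. It had a signal of 444.75 in cochlear HCs, 134 in cochlear ENSCs, 611.25 in vestibular HCs and 176.75 in vestibular ENSCs. The ratio of HCs to ENSCs was 3.32-fold for the cochlear (log2 1.73) and 3.46-fold for the vestibular libraries (log2 1.79). Both ratios were close to the threshold, and both fell short of it with a pseudocount of 100, at 1.22 and 1.36 on the log2 scale. All 4 signals were above the tied range, and both HC signals were above both ENSC signals.

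*Xirp2* (chr2:67284059-67364671, plus strand) encodes an actin-binding protein with XIN repeats that is known from striated muscle and is needed to maintain stereocilia. Its signal was 2050.25 in cochlear HCs, 75 in cochlear ENSCs, 4976.25 in vestibular HCs and 20 in vestibular ENSCs, where it was at the floor. HCs were 27.3-fold above ENSCs in the cochlea (log2 4.77) and at least 249-fold above vestibular ENSCs, the widest ratio of the 10 genes in that organ. Between organs, the *Xirp2* signal of cochlear HCs was 2.43-fold below that of vestibular HCs, short of 3-fold. That of cochlear ENSCs was at least 3.75-fold above that of vestibular ENSCs. The call between ENSCs rested on a signal of 75 and was lost under 6 of the 10 alternatives, among them a floor of 50 (log2 0.58) and the length and GC correction (log2 1.43). Of 10 skeletal muscle markers 4 had a value here, *Actc1*, *Myh8*, *Ttn* and *Des*, and their summed signal was 119.5 in cochlear HCs, 87.5 in cochlear ENSCs, 169.75 in vestibular HCs and 221 in vestibular ENSCs. *Ttn* was highest in vestibular ENSCs, where *Xirp2* was at the floor, while *Actc1* (46) and *Des* (54.25) were highest in vestibular HCs and at 20 elsewhere. The part of muscle RNA in the *Xirp2* signals was not tested. In cochlear ENSCs the signals of the 8 HC markers ran from 20 to 86.75. In vestibular ENSCs they ran from 20 to 136.5, with 6 of the 8 inside the tied range. The part of HC RNA in the *Xirp2* signal of cochlear ENSCs was not tested. A gene on the opposite strand, Gm13601, overlaps 168 nt of the exons of *Xirp2*, 1.4% of their length. Its signals were 143.25, 22, 420.75 and 20 in cochlear HCs, cochlear ENSCs, vestibular HCs and vestibular ENSCs. As the strand setting is not given, reads of this overlap cannot be told apart.

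*Grxcr1* (chr5:68423074-68557637, plus strand) encodes a glutaredoxin-domain protein that sets the width of stereocilia. It had a signal of 800 in cochlear HCs, 22.5 in cochlear ENSCs, 681.5 in vestibular HCs and 20 in vestibular ENSCs. Both ENSC signals were inside the tied range, and the HC signal of *Grxcr1* was at least 35.2-fold (cochlear) and at least 34.1-fold (vestibular) that of ENSCs. With the signals as deposited it had the widest cochlear ratio of the 10 genes, but *Xirp2* exceeded it with floors of 50 and 100 and with pseudocounts of 20 (log2 4.45 against 4.27) and 100. Its HC signals were 1.17-fold apart between organs. Its relative *Grxcr2*, which acts at the stereocilium base, had signals of 433.25, 22.5, 518.75 and 20 in cochlear HCs, cochlear ENSCs, vestibular HCs and vestibular ENSCs. For *Grxcr2* the corresponding bounds were 19.0-fold and 25.9-fold. Per kilobase, *Grxcr1* was above *Grxcr2* by 1.93-fold in cochlear HCs and by 1.37-fold in vestibular HCs.

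*Rdx* (chr9:51855255-51896842, plus strand) encodes radixin, which links actin to the membrane where the stereocilium tapers at its base. The signal was 2642.75 in cochlear HCs, 3121.25 in cochlear ENSCs, 2351 in vestibular HCs and 1987.25 in vestibular ENSCs. These 4 signals spanned 1.57-fold, the narrowest range of the 10 genes, and the log2 ratio of HC to ENSC was -0.24 for the cochlear and 0.24 for the vestibular libraries. The related ERM genes differed from *Rdx* and from each other. *Ezr* (ezrin) had signals of 1753.5 in cochlear HCs, 1783 in cochlear ENSCs, 836.5 in vestibular HCs and 2110.75 in vestibular ENSCs. *Ezr* was thus 2.52-fold lower in HCs than in ENSCs of the vestibular system and 1.02-fold lower in the cochlea. *Msn* (moesin) had signals of 23.5, 36.25, 34 and 391.75 in the same order, and it was 11.5-fold lower in HCs than in ENSCs of the vestibular system. Per kilobase, *Rdx* and *Ezr* were 1.02-fold apart in cochlear HCs, *Rdx* led by 1.91-fold in vestibular HCs, and *Ezr* led by 1.56-fold in vestibular ENSCs.

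*Rdx* and *Ezr* hold the most alike windows of 50 nt of the pairs compared with a gene of the list, and these are shown, with mismatches in capitals, from positions 1144 to 1193 of the *Rdx* coding sequence and 907 to 956 of that of *Ezr*.
Rdx: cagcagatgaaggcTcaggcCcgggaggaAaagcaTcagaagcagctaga
Ezr: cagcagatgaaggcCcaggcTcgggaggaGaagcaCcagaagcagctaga
They differ at 4 positions. Across those pairs the coding sequences were 63.5% (*Grxcr1* and *Grxcr2*) to 73.0% (*Rdx* and *Msn*) identical. Of the 10 genes, 9 had no stretch of 50 nt that matched another place in the genome with 2 or fewer mismatches, and *Triobp* had 1 of 729. Actin itself was different: 97.3% of the stretches of *Actg1* and 60.1% of those of *Actb* matched elsewhere. The signals of *Actg1* (168.25, 101, 113 and 202.25 in cochlear HCs, cochlear ENSCs, vestibular HCs and vestibular ENSCs) and *Actb* (7417.25, 11819.75, 6161 and 17991.75) are therefore uncertain. The ratio of HC to ENSC of *Actb*, 2.92-fold lower in HCs of the vestibular system, stayed within 3-fold in both organs, as did that of *Actg1*.

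**Figure D3:**
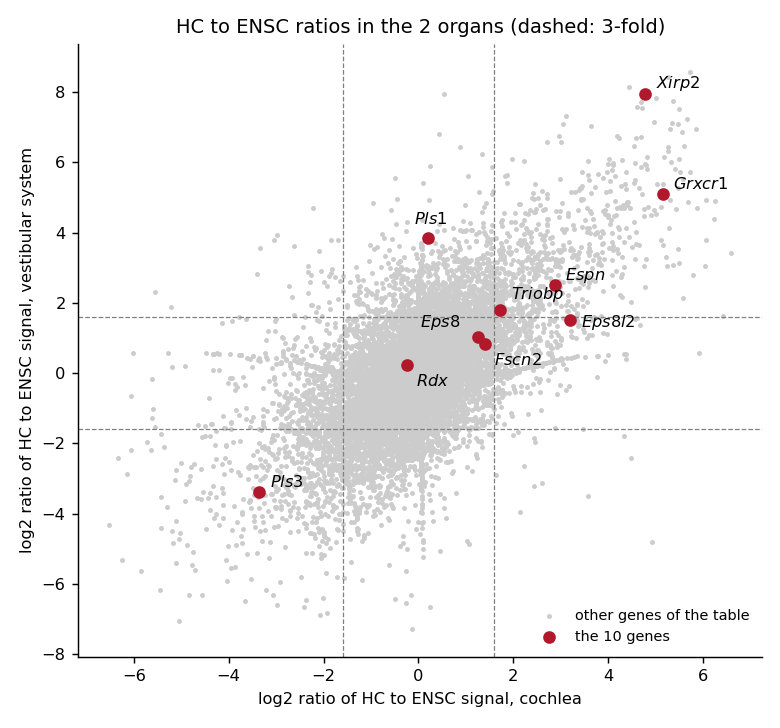
Log2 ratio of HC to ENSC signal in the cochlea (x axis) against that in the vestibular system (y axis) for the 10 genes (red, labelled) and the other genes of the table (grey); dashed lines mark 3-fold. *Xirp2*, *Grxcr1*, *Espn* and *Triobp* are past 3-fold in both organs, *Pls1* only in the vestibular system, *Eps8l2* only in the cochlea, and *Pls3* is more than 3-fold lower in both.

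Placed side by side, the log2 ratios of *Triobp*, *Pls3*, *Eps8* and *Rdx*, whose 4 signals were all above the tied range, differed between organs by less than 0.5, although those of *Rdx* had opposite signs. After the length and GC correction those of *Triobp* (1.67 and 2.74) lay farther apart, and those of *Rdx* (-0.26 and -0.07) had the same sign. The ratios of *Grxcr1*, *Espn* and *Fscn2* are lower bounds in both organs, so their differences between organs have no limit. The others were *Pls1* and *Xirp2*, whose ratios were wider in the vestibular system by 3.63 and 3.19, and *Eps8l2*, whose ratio was narrower there by 1.70, all taken with the signals as deposited. The vestibular ENSC signal of *Xirp2* was at the floor and the cochlear ENSC signal of *Eps8l2* inside the tied range, so these ratios have no upper limit. For *Eps8l2* the ratios were closer with a floor of 50 (1.99 and 1.39) and after the correction (3.29 and 2.56). With 1 library per group, the difference between organs was not tested. Compared directly, none of the 10 genes was 3-fold apart between cochlear and vestibular HCs, beside 9.3% of all genes (4.21% higher and 5.09% lower in the cochlea). So short a list cannot be told apart from that share. The log2 ratios of cochlear to vestibular HCs ran from -1.28 (*Xirp2*) and -1.03 (*Pls1*) to 0.60 (*Eps8l2*), with a median of 0.04 beside 0.00 over all genes. Between the ENSC libraries *Pls1* (log2 2.60) and *Xirp2* (log2 1.91) were past 3-fold toward the cochlea, against 7.8% of all genes, and none was past it in the other direction, against 7.94%, with 15.7% apart either way. Of these calls, that of *Xirp2* was lost under 6 of the alternatives. The largest difference in the other direction was *Eps8l2*, at least 2.02-fold lower in cochlear ENSCs.

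The order of the 10 genes per kilobase of exon was described within each library, with no spread to judge neighbours by. In cochlear HCs *Pls1* came first (1403 per kb), followed by *Grxcr1* (747 per kb), *Rdx* (546 per kb) and *Xirp2* (171 per kb). The remaining 6 lay between 18.1 per kb (*Pls3*) and 58.1 per kb (*Eps8*), and *Espn* and *Fscn2* among them were 1.02-fold apart. In vestibular HCs the first 4 places were taken in the same order, at 2866, 636, 486 and 415 per kb, and the next gene, *Eps8*, was at 62.0 per kb. In cochlear ENSCs *Pls1* (1218 per kb) and *Rdx* (645 per kb) led, *Pls3* followed at 184 per kb, and the others were at most 24.5 per kb. In vestibular ENSCs *Rdx* led at 411 per kb, ahead of *Pls3* (239 per kb) and *Pls1* (200.9 per kb), with the others at most 30.1 per kb. *Pls1*, *Rdx* and *Pls3* thus held the first 3 places in both ENSC libraries.

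Base composition separated the list into groups that the rule did not use. The exons of *Espn* (61.9% GC), *Fscn2* (58.7%), *Eps8l2* (57.4%) and *Triobp* (57.4%) had a higher GC content than 90.8% (*Triobp*) to 99.0% (*Espn*) of genes, while the other 6 lay between 42.2% (*Xirp2*) and 47.6% (*Eps8*), below the median of 48.8%. Across genes, the log2 ratio of HC to ENSC correlated with GC content at Spearman's rho -0.395 over 10358 genes in the vestibular system and at -0.0400 over 10722 genes in the cochlea, a description in which the genes share libraries. For the log2 ratio of cochlear to vestibular signal, rho was -0.453 over 10475 genes between the ENSC libraries. Between the HC libraries it was 0.02 over 10850 genes. With the trends on length and GC removed, the vestibular log2 ratio of *Espn* rose from 2.50 to 3.87, that of *Triobp* from 1.79 to 2.74, that of *Eps8l2* from 1.51 to 2.56 and that of *Fscn2* from 0.84 to 2.07. The last 2 then passed 3-fold. The vestibular ratios of *Pls1* (3.35), *Xirp2* (7.29), *Grxcr1* (4.94), *Pls3* (-3.70) and *Eps8* (0.96) kept their direction and their side of the threshold, and that of *Rdx* went from 0.24 to -0.07. In the cochlea the correction moved *Fscn2* from 1.41 to 1.66, past 3-fold with the ENSC signal as deposited, and changed no other call. For cochlear against vestibular ENSCs it moved *Pls1* from 2.60 to 2.08, and *Xirp2* from 1.91 to 1.43, below 3-fold. Ratios of the relatives and of the other actin lists are given without the correction. All ratios in this paragraph use the deposited signals, those inside the tied range included.

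**Figure D4:**
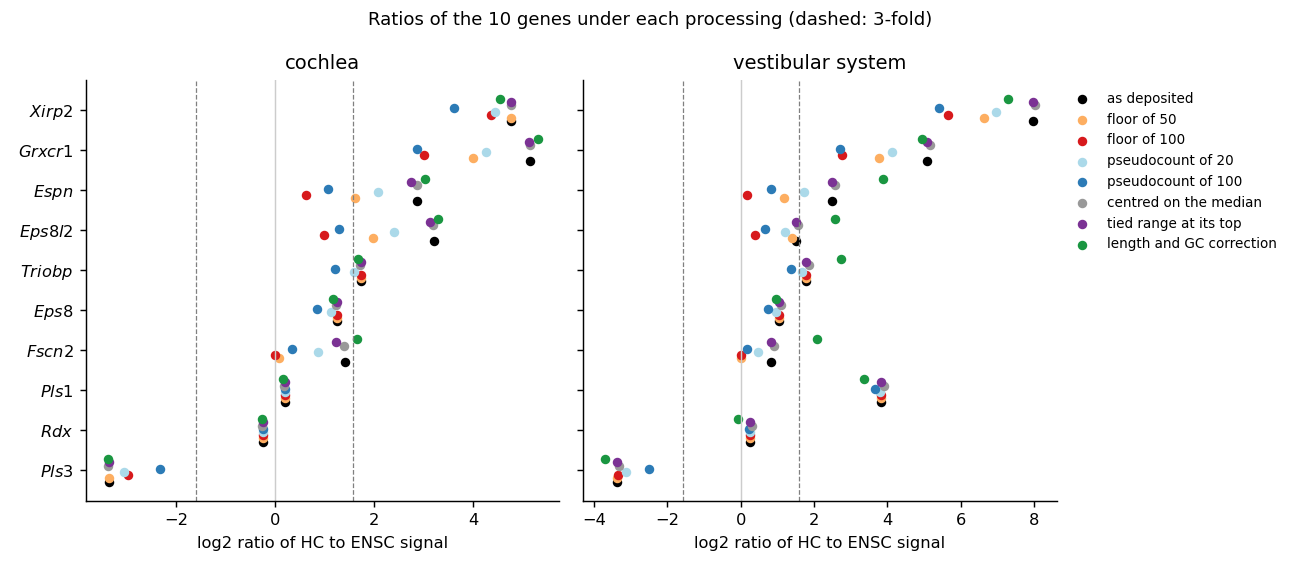
Log2 ratio of HC to ENSC signal of each of the 10 genes under 8 ways of processing (colours), in the cochlea (left) and the vestibular system (right); dashed lines mark 3-fold. *Espn*, *Eps8l2*, *Triobp* and *Fscn2* have points on both sides of 3-fold in at least 1 organ, and *Xirp2*, *Grxcr1* and *Pls3* stay past it in both.

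For each gene, the protein-coding genes with the most similar pattern over the 4 libraries were found among 6720 genes whose highest signal was 200 or more, by the Euclidean distance between log2 signals after each gene was centred on its own mean. The nearest to *Xirp2* was *Otof*, which encodes the calcium sensor otoferlin of the HC synapse, with signals of 1565.5, 59.25, 3806 and 20.25 and a distance of 0.34. *Grxcr1* was nearest to *Scg3* (0.23), a gene of secretory granules, and its 3 nearest included *Clrn1*, an Usher syndrome gene. *Espn* was nearest to *Ptplad1* (0.13), followed by *Fhod3* (0.16), a formin gene. The nearest genes were *Ttc30a1* for *Pls1* (0.38), *Fgfr1op* for *Triobp* (0.25), *Grk5* for *Eps8l2* (0.17), *Mtap7* for *Eps8* (0.04), *Spata5* for *Fscn2* (0.11), *Rictor* for *Rdx* (0.05) and AI646023 for *Pls3* (0.22). Within the list, the closest were *Fscn2* and *Eps8* (0.52) and the farthest *Pls3* and *Xirp2* (9.89). These distances rest on 4 libraries and on the signals as deposited, and those of *Xirp2*, *Grxcr1*, *Espn*, *Eps8l2* and *Fscn2* include signals inside the tied range, so their order is uncertain.

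The other actin genes of the HC were counted by lists. Beside these counts, 8.39% of all genes were higher and 9.2% lower in cochlear HCs, and 13.8% and 14.3% in vestibular HCs. Of 13 genes of the stereocilia tip and length complex, 8 were past 3-fold toward HCs among the cochlear and 8 among the vestibular libraries, and none was lower. The cochlear count includes *Whrn* and *Twf2*, whose ENSC signals were inside the tied range and whose bounds, 2.90-fold and 2.87-fold, do not reach 3-fold. The list median of the log2 ratio was 1.72 and 2.62 in these organs with the signals as deposited. The cochlear median is the ratio of *Whrn* itself, so it is also uncertain. *Myo15*, the motor that carries EPS8 and whirlin to the tips, had signals of 688.5, 26.75, 1171 and 20 in cochlear HCs, cochlear ENSCs, vestibular HCs and vestibular ENSCs. *Whrn*, which encodes whirlin, was low, at 66, 20, 77.5 and 24.25, with a ratio of 3.20-fold between the vestibular populations. *Myo3a* and *Myo3b*, motors that carry espins, were both past 3-fold in both organs, and *Myo3a* was at 4545.5 in cochlear and 614.5 in vestibular HCs. Of 10 genes of the base and rootlet, 5 were higher in cochlear HCs (*Ptprq*, *Myo6*, *Grxcr2*, *Dfnb59* and *Lmo7*). In the vestibular system 7 were higher, those 5 with *Clic5* and *Slc9a3r2*, and 1, *Slc9a3r1*, was lower. *Clic5*, whose protein works with radixin at the base, had signals of 1203.25, 1846.75, 1544.5 and 134.75, and like *Pls1* it was low in vestibular ENSCs alone.

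The general actin machinery was counted in the same way. Beside these counts, 8.39% of all genes were higher and 9.2% lower in HCs of the cochlea. In the vestibular system the shares were 13.8% and 14.3%, and in lists this short a count near them says little. Of 13 genes of filament turnover, 1 (*Cap2*) was past 3-fold toward HCs in each organ, while 3 were lower in the cochlea (*Cfl1*, *Tmsb4x* and *Gsn*) and 7 in the vestibular system (*Cfl1*, *Dstn*, *Wdr1*, *Cap1*, *Pfn1*, *Tmsb4x* and *Capg*). *Tmsb4x*, which encodes the actin-sequestering thymosin beta 4, was at 251.25, 2784.5, 417.75 and 4588.5 in cochlear HCs, cochlear ENSCs, vestibular HCs and vestibular ENSCs. The list median was -1.15 for the cochlear and -1.59 for the vestibular libraries. Of 12 nucleation genes, *Wasf1* was higher in both organs and *Daam1* in the vestibular system, while 6 were lower in the cochlea (*Diap1*, *Diap2*, *Diap3*, *Fmnl2*, *Daam2* and *Wasf2*) and 4 in the vestibular system (*Diap2*, *Fmnl2*, *Fmnl3* and *Wasf2*). Of 5 other bundlers and crosslinkers counted, none was higher. In the cochlea 1 was lower (*Marcks*), and in the vestibular system 3 were (*Actn4*, *Flna* and *Marcksl1*), with list medians of -0.92 and -2.04.

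**Figure D5:**
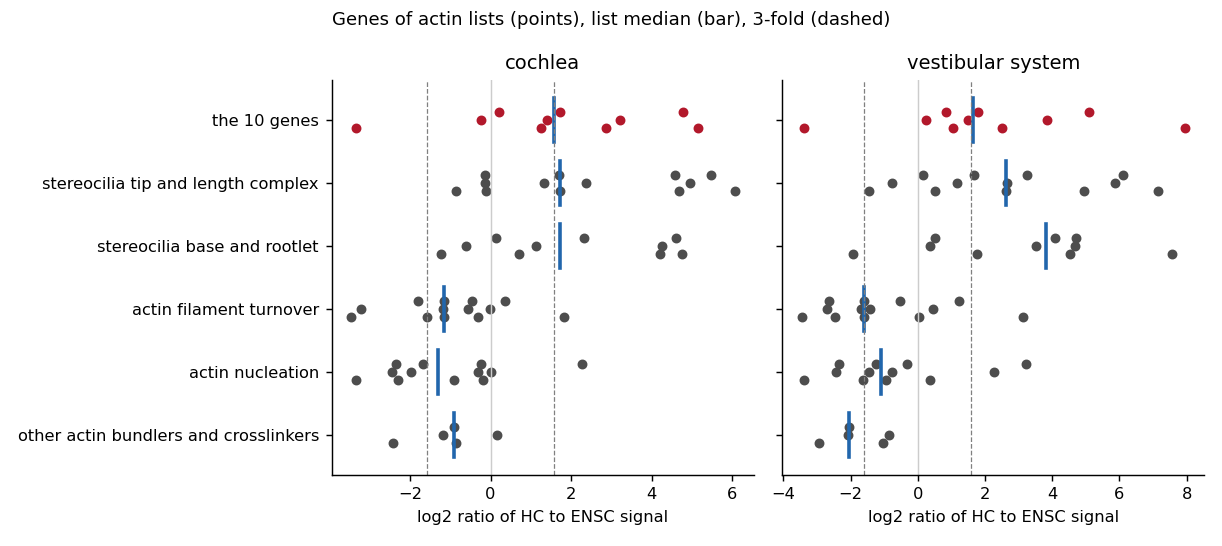
Log2 ratio of HC to ENSC signal of the genes of 6 lists (points) with the median of each list (bar), in the cochlea (left) and the vestibular system (right); the dashed lines mark 3-fold and *Espnl* and *Grxcr2* appear among the tip and the base genes. Medians of the 10 genes and of the tip and base lists lie above 1.5 in both organs, and those of turnover, nucleation and other crosslinkers lie between -0.92 and -2.04.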

How the data were processed

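RNA of sorted HCs and ENSCs was amplified with the NuGEN Ovation system. Each deposited value is a gene's signal, which the authors made from read counts: the first 50 nt of each read were aligned, reads were counted per ENSEMBL gene, and the 4 columns were quantile-normalized and given a floor of 20. The methods place the floor after the normalization, while the name of the deposited values places it before. This order was not settled here. The submitters' processing notes name TopHat, HTSeq and mm9. Their versions, the strand setting and the release of the ENSEMBL genes are not given in the sources used here. Triplicates are mentioned in the design, but each population has 1 column in the table, matched to its sample by name, with those called non-HC taken as ENSCs. The normalization removes differences in depth and total RNA, so the depth is unknown and no counting interval is given.

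Log2 ratios were taken with no pseudocount, and ratios of 3 or more in either direction were counted over all 12814 genes with Python 3.11.15, pandas 2.3.3 and numpy 2.4.6. The scripts were tested on simulated data. A tied range was taken to end at the signal past which the highest signals of the same genes elsewhere dropped sharply. Positions, exonic length and GC came from GENCODE M1 on NCBIM37, which matched 12799 genes by identifier. The length and GC correction used local regression (statsmodels 0.14.6, fraction 0.3, 2 robust iterations). Stretches of transcripts were searched in the genome with minimap2 2.31-r1302, and coding sequences were aligned with Biopython 1.88. All 10 genes are named with each signal. From the other lists, genes at least 3-fold apart in an organ are counted and examples named, together with relatives, actin genes and the markers a statement rests on. One gene of the list of other crosslinkers is not reported here and was left out of its counts. The genes, the lists and this rule were chosen with earlier results of these data known. *Fhod3* and *Clrn1* stand among the 3 nearest genes by the stated distance. Alternatives were floors of 50 and 100, pseudocounts of 20 and 100, centring, thresholds of 2 and 5, a filter at 100, the tied range raised to its top, and the correction.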

Additional observations from a re-analysis of the deposited data

Results flagged for a closer look

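For *Rdx*, and for 6 genes of the other actin lists whose ratios differed by 3-fold or more between organs, the HC library was above the ENSC library in one organ and below it in the other. This opposite direction was not tested, with 1 library per group. *Actg1* (0.74 for the cochlear and -0.84 for the vestibular log2 ratio) and the muscle marker *Ttn* (1.11 and -1.53) also had opposite signs. So did the epithelial marker *Cdh1* (0.31 and -4.21) and the supporting cell markers *Tectb* (-2.74 and 0.69) and *Sparcl1* (-1.64 and 0.03). The neuron marker *Ntrk3* (-0.36 and 1.44) did too, with its cochlear HC signal inside the tied range. For *Rdx* the log2 ratio of HC to ENSC was -0.24 for the cochlear and 0.24 for the vestibular libraries, a difference of 0.48, and after the length and GC correction both were below 0 (-0.26 and -0.07). For *Clic5* the ratios were -0.62 and 3.52, a difference of 4.14. *Gsn*, which encodes the severing protein gelsolin, had -3.21 and 0.45, a difference of 3.67. The ratios of *Daam1*, a formin gene, were -0.20 and 2.28, a difference of 2.48. *Twf1*, which encodes twinfilin 1, had -1.15 and 1.24, a difference of 2.39. In the other direction, *Fmnl3*, also a formin gene, had 0.02 and -2.34 with the signals as deposited, a difference of -2.36, but its vestibular HC signal was inside the tied range, so that it was at least 4.28-fold lower there. *Cap1*, which encodes a cyclase-associated protein, had 0.35 and -1.68, a difference of -2.04.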

How the results depend on the processing

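No paired analysis was possible because the groups compared share fewer than 2 replicate numbers, and with 1 library each no replicate could be left out. In the cochlea, 6 of the 10 genes were at least 3-fold apart between HCs and ENSCs, and 3 with a pseudocount of 100, while the share of all genes apart went from 17.6% to 6.24%. Between cochlear and vestibular HCs, a threshold of 2 gave 2 genes (*Pls1* and *Xirp2*) in place of 0, and 21.0% of all genes were apart at that threshold. Between ENSCs, the count of 2 became 1 (*Pls1*) with a floor of 50 or 100, a pseudocount of 20 or 100, a threshold of 5 or the length and GC correction, while the share of all genes apart went from 15.7% to between 5.14% and 12.3%. The other counts of genes apart stayed within 1.5 times, but the 5 genes higher in HCs became 3 in the cochlea with a floor of 100 and 3 in the vestibular system with a pseudocount of 100. Over all 12814 genes, those higher in HCs went from 1075 to 522 in the former case and from 1762 to 672 in the latter. Of 396 ratios of single genes under the alternatives, 369 kept their side of the threshold, 17 lost the threshold, 10 gained it and 0 reversed a call. Among the 369, 3 changed sign and 11 became 0 without being past the threshold. *Espn* fell to 0.62 in the cochlea with a floor of 100, and to 1.18 and 0.18 in the vestibular system with floors of 50 and 100, and to 1.07 and 0.83 in these organs with a pseudocount of 100. *Eps8l2* fell to 0.99 in the cochlea with a floor of 100. The highest signals of *Fscn2*, *Espn* and *Eps8l2* were 53.25, 153.75 and 198.25.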
